A study of Mus musculus with 12 samples.

Results

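The cytosolic heat shock chaperones followed here are 10 genes: the Hsp70 genes Hspa1a, Hspa1b and Hspa8, the Hsp110 gene Hsph1, the J-domain genes Dnajb1 and Dnaja1, the Hsp90 genes Hsp90aa1 and Hsp90ab1, the small heat shock gene Hspb1 and the co-chaperone gene Bag3. They were taken by name from the 52169 genes of the count table, where they hold 106 of the 189364 transcripts that name a gene. Hspa1a and Hspa1b were chosen by their fold change in lesioned striatum after chronic against acute L-DOPA, and Dnajb1 was chosen by the change of its lesion effect between both treatments. Those values are therefore given as a description, with no test. The lesion effects of these 3 genes share libraries with the comparisons that chose them, and are likewise described and not tested. The other members belong to the same chaperone families and were listed with earlier results of these data known. Their tests share libraries with the comparisons that chose the 3 genes, and their values vary with those of the 3. Their calls are therefore not independent of that choice.

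All mice were female C57BL/6J mice that received 6-OHDA, a toxin of catecholamine neurons, in the medial forebrain bundle of the right hemisphere, after desipramine to spare noradrenergic neurons. The lesion removes the dopamine input of the striatum on that side, and the striatum of the other side was the unlesioned one. All mice also received L-DOPA at 10 mg/kg with 7.5 mg/kg benserazide, either as a single injection (acute) or daily for 9 days (chronic), and were killed 1 h after the only or the last injection, so no group here was without L-DOPA. RNA from striatal punches was sequenced in 12 libraries, 3 in each of 4 groups: acute unlesioned, acute lesioned, chronic unlesioned and chronic lesioned striatum.

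Cytosolic chaperones bind unfolded protein chains and help them to fold, stay soluble or be degraded. Hsp70 proteins bind and release such chains in a cycle driven by ATP, which J-domain proteins start, Hsp110 proteins drive on by nucleotide exchange and BAG proteins modulate, while Hsp90 acts on later folding steps of kinases and hormone receptors. Many of these genes are switched on by heat shock factor 1, which binds inverted repeats of the unit nGAAn, and in brain they are known to respond to fever and to misfolded protein.

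The stretches just before the start sites are shown for some of the members that differ most between groups below, so they are no fair sample of the members. Sequences are RefSeq promoters on the mouse build GRCm38.p6, each 250 bases long, read 5′ to 3′ on the strand of the gene and ending at the base before the start site. Capitals mark each match to GAANNTTC or TTCNNGAA, which are inverted pairs of the unit and read alike on both strands. Hspa1a stands at chr17:34972157-34972406 and Hspa1b at chr17:34959239-34959488, both on the minus strand, Hspb1 at chr5:135887669-135887918 on the plus strand, Hsph1 at chr5:149636316-149636565 on the minus strand and Dnajb1 at chr8:83607925-83608174 on the plus strand.
Hspa1a: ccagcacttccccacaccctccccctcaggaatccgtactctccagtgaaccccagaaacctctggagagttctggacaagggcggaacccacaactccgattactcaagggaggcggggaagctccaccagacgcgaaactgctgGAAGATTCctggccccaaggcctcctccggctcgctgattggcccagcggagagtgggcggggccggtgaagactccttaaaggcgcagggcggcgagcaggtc
Hspa1b: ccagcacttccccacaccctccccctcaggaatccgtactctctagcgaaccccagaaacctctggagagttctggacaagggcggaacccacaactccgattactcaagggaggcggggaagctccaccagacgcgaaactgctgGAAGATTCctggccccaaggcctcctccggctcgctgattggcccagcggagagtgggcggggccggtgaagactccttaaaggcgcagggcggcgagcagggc
Hspb1: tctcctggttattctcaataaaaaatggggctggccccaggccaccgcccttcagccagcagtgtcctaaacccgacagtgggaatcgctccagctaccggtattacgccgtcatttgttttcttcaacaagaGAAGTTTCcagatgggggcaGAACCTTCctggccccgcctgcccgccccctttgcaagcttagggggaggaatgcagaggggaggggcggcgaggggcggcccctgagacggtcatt
Hsph1: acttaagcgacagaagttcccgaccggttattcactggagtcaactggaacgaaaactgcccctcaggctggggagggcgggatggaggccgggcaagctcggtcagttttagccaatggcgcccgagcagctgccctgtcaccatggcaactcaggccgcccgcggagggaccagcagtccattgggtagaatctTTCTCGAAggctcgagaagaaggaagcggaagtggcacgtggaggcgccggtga
Dnajb1: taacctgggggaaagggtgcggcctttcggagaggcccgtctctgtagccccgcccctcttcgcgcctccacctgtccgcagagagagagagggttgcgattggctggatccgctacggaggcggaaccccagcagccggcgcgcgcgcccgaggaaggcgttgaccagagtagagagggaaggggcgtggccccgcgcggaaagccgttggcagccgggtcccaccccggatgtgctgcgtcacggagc
Hspa1a and Hspa1b differed at 3 of the 250 bases and both held GAANNTTC with its first base 104 before the start. Hspb1 held it 117 and 97 before the start, and Hsph1 held TTCNNGAA 54 before the start. Neither form of the pair stood in the Dnajb1 window or in that of Bag3, and of the promoters listed for Dnaja1 1 held GAANNTTC, 124 before its start. Either form was found in 12.8% of 32851 promoters of this length, so a match is common and says only that the letters are there. No promoter listed for a member held 3 alternating units in a row, as 0.466% of all promoters did. A missing match says nothing on looser or more distant units. The table holds promoters of 7 of the 10 members (not of Hspa8, Hsp90aa1 and Hsp90ab1).

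Depth was 87695043 to 173116525 counts per library. Reads over several overlapping transcripts count once for each of them, so a gene is given by its transcript with the highest mean count, in CPM, its count scaled to the library size. These values compare libraries within a gene, and levels are compared between genes only as CPM per kilobase of transcript. The libraries stem from separate mice according to the series, while the study describes the unlesioned side as the control within each mouse. Same-numbered lesioned and unlesioned libraries varied together, least so for chronic replicate 3. A fit with the replicate number as a block is therefore given where it changes a call. Among the markers checked, the sum over medium spiny neuron genes, the main striatal neurons, lay between 1521 and 2246 CPM, and edgeR called 4 of the 9 in the table higher and 4 lower in lesioned striatum after acute L-DOPA, from Penk at a log2 fold change of 0.94 to Drd1a, the D1 dopamine receptor gene, at -2.30.

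In lesioned striatum after acute L-DOPA, the J-domain genes, the constitutive Hsp70 and the co-chaperone Bag3 were above unlesioned striatum, by 12.5-fold for Dnajb1 and by 1.52 to 1.85-fold for the others. In edgeR's quasi-likelihood test, adjusted over all transcripts, 4 of the 7 members that no measured value chose were called higher (Hsph1, Hspa8, Bag3 and Dnaja1). None of the 7 was lower in edgeR, at an unadjusted p under 0.05 or in DESeq2. Of all 129674 transcripts tested, 6.85% were called higher and 6.02% lower. The 7 were listed with earlier results known, so these shares stand beside their calls as a description. All 10 members had a fold change above 0 and the median of their log2 fold changes was 0.74 (0.601 for the 7), against 0.00545 over all transcripts. In bulk tissue a change in the number of cells of a type cannot be told apart from a change in RNA per cell.

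Dnajb1 encodes Hsp40, the J-domain protein that delivers substrates to Hsp70, and lies on chr8:86132074-86135802 (mm9, plus strand, 3 exons). In acute unlesioned striatum its 3 libraries held 23.2, 16.1 and 12.1 CPM, and in acute lesioned striatum they held 265, 208 and 169 CPM. In chronic unlesioned striatum they held 10.9, 15.0 and 9.27 CPM, and in chronic lesioned striatum 22.4, 52.5 and 25.1 CPM. The acute lesioned libraries stood far above all others, with the lowest of them over 3 times the highest chronic lesioned one. Lesioned and unlesioned libraries did not overlap under either treatment, as held for 15.4% of all transcripts after acute and 15.7% after chronic L-DOPA with the lesioned side higher. After acute L-DOPA the means were 214 ± 48.5 CPM in lesioned against 17.1 ± 5.65 CPM in unlesioned striatum (SD, n = 3), a log2 fold change of 3.64 ± 0.22 (SE, not tested). After chronic L-DOPA the log2 fold change was 1.51 ± 0.29 (SE), or 2.85-fold. In the pairs of equal replicate number the ratio of lesioned to unlesioned was 11.4, 12.9 and 14.0 after acute and 2.06, 3.49 and 2.71 after chronic L-DOPA.

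**Figure D1:**
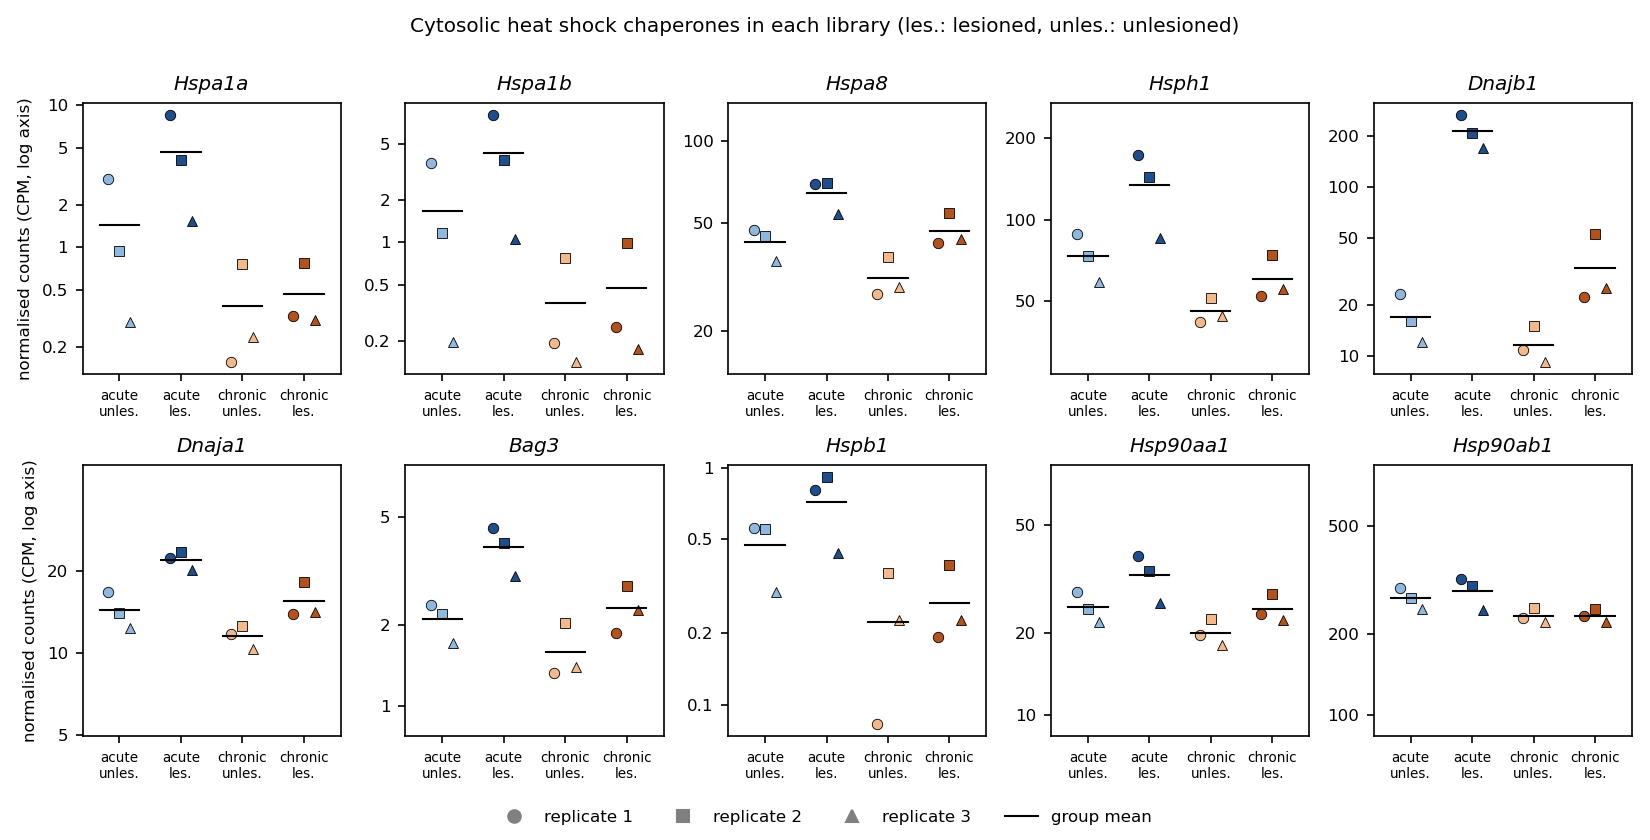
Level of each of the 10 chaperone genes in every library, in CPM on a log axis, by group (acute unlesioned, acute lesioned, chronic unlesioned, chronic lesioned). Each point is 1 library, its shape the replicate number and each line the group's mean, and the acute lesioned libraries of Dnajb1 lie between 169 and 265 CPM, above all of its other libraries.

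Per kilobase, Dnajb1 moved from the fifth place among the members in acute unlesioned striatum (7.56 ± 2.49 CPM per kilobase) to the second in acute lesioned striatum (94.6 ± 21.4), behind Hsp90ab1 only (115 ± 15.3). In acute unlesioned striatum the order of mean levels per kilobase was Hsp90ab1 (108 ± 9.60), Hsph1 (19.4 ± 3.83), Hspa8 (13.5 ± 1.78), Hsp90aa1 (7.60 ± 0.979), Dnajb1, Dnaja1 (2.58 ± 0.398), Bag3 (0.806 ± 0.129), Hspa1b (0.597 ± 0.638), Hspb1 (0.522 ± 0.164) and Hspa1a (0.511 ± 0.513). Hsp90aa1 and Dnajb1 were within their spread of each other there, as were Bag3, Hspa1b, Hspb1 and Hspa1a. Levels between genes also depend on how the transcripts of each gene share reads.

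Dnaja1, the other J-domain member, lies on chr4:40669501-40684186 (mm9). Its libraries held 16.8, 14.0 and 12.4 CPM in acute unlesioned and 22.4, 23.5 and 20.2 CPM in acute lesioned striatum. They held 11.7, 12.5 and 10.4 CPM in chronic unlesioned and 14.0, 18.2 and 14.2 CPM in chronic lesioned striatum. Under both treatments the lesioned libraries lay above the unlesioned ones without overlap. Dnaja1 had a log2 fold change of 0.61 ± 0.0994 after acute (SE, edgeR adjusted p = 0.00196) and 0.43 ± 0.117 after chronic L-DOPA (SE, edgeR adjusted p = 0.0392). The chronic call was lost without chronic lesioned replicate 2 (log2 fold change 0.30, edgeR adjusted p = 0.0804) or 3 (0.49, 0.0569), and without chronic unlesioned replicate 1 (0.44, 0.0995) or 3 (0.35, 0.149). Its sequence overlaps Smu1 on the opposite strand and Gm6297, and the strand used in counting was not given in the sources used here.

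Hspa1a and Hspa1b are the stress-inducible Hsp70 genes, on chr17:35106304-35109101 and chr17:35093374-35096183 (mm9, minus strand, each with 1 exon). Hspa1a held 3.04, 0.944 and 0.300 CPM in acute unlesioned and 8.53, 4.13 and 1.53 CPM in acute lesioned striatum. It held 0.157, 0.769 and 0.235 CPM in chronic unlesioned and 0.330, 0.777 and 0.310 CPM in chronic lesioned striatum, from 17 to 1125 reads in a library. The libraries within a group differed widely, and acute replicate 1 was the highest on both sides. Hspa1b held 3.67, 1.17 and 0.195 CPM, then 7.99, 3.82 and 1.05 CPM, in acute unlesioned and acute lesioned striatum. It held 0.194, 0.769 and 0.141 CPM in chronic unlesioned and 0.251, 0.990 and 0.173 CPM in chronic lesioned striatum. Both genes had the same high and low libraries in every group but chronic unlesioned, where the lowest was replicate 1 for Hspa1a and replicate 3 for Hspa1b. Acute lesioned and acute unlesioned libraries overlapped for both.

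After acute L-DOPA the lesion effect was 1.69 ± 0.622 for Hspa1a and 1.32 ± 0.702 for Hspa1b (log2 fold change, SE). Blocked on replicate number, these were 1.81 and 1.46. These values were not tested, since the acute lesioned libraries also chose both genes. The ratio of lesioned to unlesioned Hspa1a was 2.80, 4.38 and 5.10 in the pairs, and that of Hspa1b was 2.18, 3.27 and 5.41. In fits without the block, which kept the same-numbered library of the other side, the effect changed with the library left out. Without acute lesioned replicate 1 it was 0.91 for Hspa1a and 0.46 for Hspa1b, and without acute unlesioned replicate 1 it was 2.94 and 2.66. After chronic L-DOPA the effect was 0.31 ± 0.537 for Hspa1a and 0.39 ± 0.698 for Hspa1b, errors larger than the values.

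The 2 genes share much of their sequence: 66.2% of the windows of 36 bases of the Hspa1a transcript also occur in Hspa1b. Reads from such windows cannot be assigned to a single gene, so the split between them is uncertain, and Hspa1a held 44.0 to 64.2% of their sum over the libraries. Summed, they had a log2 fold change of 1.51 ± 0.670 after acute and 0.34 ± 0.596 after chronic L-DOPA (SE). The Hspa1b transcript also overlaps a transcript named Hspa1a on the same strand and 7330403C04Rik on the opposite strand.

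Hspa8 encodes the constitutive Hsp70, Hsc70, which works in folding and in the uncoating of clathrin vesicles (chr9:40609359-40613282, mm9). It held 46.9, 44.7 and 36.3 CPM in acute unlesioned and 69.6, 70.3 and 53.8 CPM in acute lesioned striatum. It held 27.2, 37.4 and 29.0 CPM in chronic unlesioned and 41.9, 54.2 and 43.7 CPM in chronic lesioned striatum. The lesioned libraries were above the unlesioned ones without overlap after both treatments. Hspa8 had a log2 fold change of 0.60 ± 0.111 after acute (SE, edgeR adjusted p = 0.00457) and 0.58 ± 0.134 after chronic L-DOPA (SE, edgeR adjusted p = 0.0187). The chronic call was lost without chronic unlesioned replicate 1 (0.49, edgeR adjusted p = 0.0762) or 3 (0.53, edgeR adjusted p = 0.082). Hspa8 hosts the small nucleolar RNA genes Snord14c, Snord14d and Snord14e, and overlaps LOC624853.

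Hsph1 encodes Hsp105, an Hsp110 protein that exchanges the nucleotide of Hsp70 (chr5:150419119-150438913, mm9, minus strand). It held 88.3, 73.3 and 59.2 CPM in acute unlesioned and 173, 143 and 85.6 CPM in acute lesioned striatum. It held 42.2, 51.6 and 44.3 CPM in chronic unlesioned and 52.5, 74.0 and 55.5 CPM in chronic lesioned striatum. After acute L-DOPA lesioned replicate 3 fell within the unlesioned range, while after chronic L-DOPA the sides did not overlap. For Hsph1 the log2 fold change was 0.87 ± 0.205 after acute L-DOPA (SE, edgeR adjusted p = 0.0171) and 0.40 ± 0.132 after chronic L-DOPA (SE, edgeR adjusted p = 0.0807). The acute call was lost without acute lesioned replicate 2 (0.81, edgeR adjusted p = 0.0706), without acute unlesioned replicate 3 (0.73, 0.081), in DESeq2 (0.87, 0.0582) and when transcripts were summed by gene (0.86, 0.055). The chronic effect was called with the replicate block (0.39, edgeR adjusted p = 0.00111), in DESeq2 (0.40, 0.0214) and without chronic unlesioned replicate 2 (0.49, 0.0429).

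Bag3, a co-chaperone that links Hsp70 to small heat shock proteins and selective autophagy, lies on chr7:135667097-135690495 (mm9). It held 2.36, 2.20 and 1.72 CPM in acute unlesioned and 4.54, 4.02 and 3.03 CPM in acute lesioned striatum, where the sides did not overlap. It held 1.33, 2.03 and 1.39 CPM in chronic unlesioned and 1.86, 2.78 and 2.26 CPM in chronic lesioned striatum, where unlesioned replicate 2 lay above lesioned replicate 1. The log2 fold change was 0.88 ± 0.15 after acute L-DOPA (SE, edgeR adjusted p = 0.00257) and 0.54 ± 0.19 after chronic L-DOPA (SE, edgeR adjusted p = 0.096). The chronic effect was called with the replicate block (0.55, edgeR adjusted p = 0.00323) and without chronic unlesioned replicate 2 (0.76, 0.0162). Bag3 overlaps 2610306O10Rik.

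Hspb1, the small heat shock protein Hsp27 that holds unfolded chains and acts on actin, was near the lower end of detection (chr5:136363789-136365433, mm9). It held 0.559, 0.555 and 0.300 CPM in acute unlesioned and 0.804, 0.914 and 0.438 CPM in acute lesioned striatum. It held 0.0830, 0.359 and 0.229 CPM in chronic unlesioned and 0.194, 0.389 and 0.228 CPM in chronic lesioned striatum, at 9 to 106 reads a library. The sides overlapped after both treatments. The log2 fold change was 0.59 ± 0.274 after acute (SE, edgeR adjusted p = 0.182) and 0.27 ± 0.443 after chronic L-DOPA (SE, edgeR adjusted p = 0.758). The acute effect was called with the replicate block (0.60, edgeR adjusted p = 0.0131) and without acute lesioned replicate 3 (0.84, 0.0349).

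Hsp90aa1, the inducible Hsp90 isoform (chr12:111928815-111934605, mm9), held 28.4, 24.4 and 22.0 CPM in acute unlesioned and 38.3, 33.8 and 25.8 CPM in acute lesioned striatum. It held 19.6, 22.4 and 18.1 CPM in chronic unlesioned and 23.5, 27.8 and 22.3 CPM in chronic lesioned striatum. A single lesioned library lay within the unlesioned range under each treatment. The log2 fold change was 0.39 ± 0.126 after acute (SE, edgeR adjusted p = 0.063) and 0.29 ± 0.109 after chronic L-DOPA (SE, edgeR adjusted p = 0.115). With the replicate block both were called (acute 0.38, edgeR adjusted p = 0.000389; chronic 0.29, edgeR adjusted p = 0.00509). The acute effect was also called without acute lesioned replicate 3 (0.53, edgeR adjusted p = 0.00383) and with no filter on low counts (0.38, 0.0284). It overlaps 4932703K07Rik on the opposite strand.

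Hsp90ab1, the constitutive Hsp90 isoform (chr17:45704728-45710215, mm9), held 296, 271 and 248 CPM in acute unlesioned and 319, 299.8 and 245 CPM in acute lesioned striatum. It held 228, 249 and 221 CPM in chronic unlesioned and 232, 247 and 220 CPM in chronic lesioned striatum. Lesioned and unlesioned libraries covered nearly the same range. Its lesion effect was 0.09 ± 0.0972 on the log2 scale after acute (SE, edgeR adjusted p = 0.603) and 0.00 ± 0.0823 after chronic L-DOPA (SE, edgeR adjusted p = 0.987), with no call under the block.

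In chronic lesioned against chronic unlesioned striatum, Hspa8 and Dnaja1 rose, with log2 fold changes of 0.58 and 0.43, and Dnajb1 was at 1.51. In edgeR 2 of the 7 members that no measured value chose were called higher and none lower there, in DESeq2 or at an unadjusted p under 0.05, where 7.71% of 127063 transcripts were called higher and 4.33% lower. The median log2 fold change of the members was 0.396 (0.399 for the 7), against -0.0184 over all transcripts, and only Dnajb1 passed 1.5-fold. Over all their transcripts, those called higher were 14 of 14 of Hsph1, 24 of 24 of Hspa8, 3 of 3 of Bag3, 16 of 17 of Dnaja1 and 1 of 17 of Hsp90aa1 after acute L-DOPA, and 21 of 24 of Hspa8, 13 of 17 of Dnaja1 and 1 of 17 of Hsp90aa1 after chronic L-DOPA. Transcripts of a gene share reads, so calls within a gene repeat much of the same measurement and are not independent. The share of all transcripts called higher was 6.85% after acute and 7.71% after chronic L-DOPA. Without chronic unlesioned replicate 1 or 3, none of the 7 was called. With the replicate block 6 of the 7 were called higher after acute and 5 after chronic L-DOPA, while the share of all transcripts called higher grew to 11.3% and 11.7%. Paired by replicate number, the lesioned library was above the unlesioned one in all 3 pairs for 6 of the 7 after acute and 5 after chronic L-DOPA, the exceptions being Hsp90ab1 in both and Hspb1 after chronic L-DOPA, as it was for 26.2% and 25.2% of all transcripts.

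**Figure D2:**
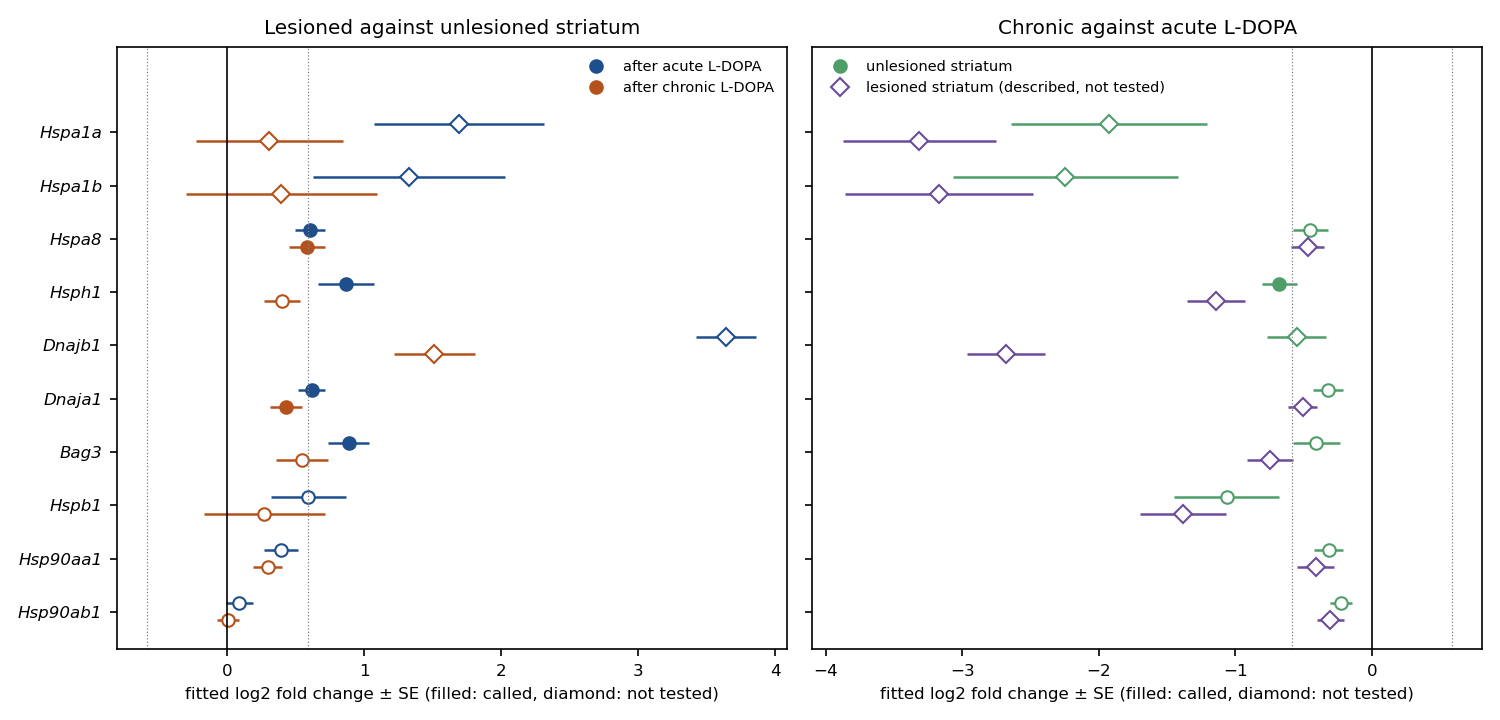
Log2 fold change of each chaperone gene with its standard error from the edgeR fit, for lesioned against unlesioned striatum (acute and chronic) and for chronic against acute L-DOPA (unlesioned and lesioned). Filled circles were called at an adjusted p under 0.05, dotted lines mark 1.5-fold and open diamonds were not tested, since the libraries compared, or libraries that vary with them, chose the gene or others of the list. Dnajb1 stands apart after acute L-DOPA at 3.64, and all 10 genes lie below 0 in both comparisons of chronic with acute L-DOPA.

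Between treatments, the question was whether the chaperones of the side with intact dopamine input also differed after 1 and 9 days of L-DOPA. These libraries took no part in the comparison that chose Hspa1a and Hspa1b, but they vary together with its lesioned libraries of the same number and may be the other side of the same mice, so they are not independent of it. They entered the comparison that chose Dnajb1. Hsph1 was lower in chronic than in acute unlesioned striatum, with means of 46.0 ± 4.95 against 73.6 ± 14.6 CPM (SD, n = 3) and a log2 fold change of -0.68 ± 0.13 (SE, edgeR adjusted p = 0.0272), 1.60-fold lower. Among the 7 members that no measured value chose it was the 1 called, where 1.64% of 129187 transcripts were called lower and 0.968% higher, and the 1 whose groups did not overlap, as held with chronic lower for 13.6% of all transcripts. The call was lost without chronic unlesioned replicate 1 (-0.61, edgeR adjusted p = 0.092) or 3 (-0.65, 0.0967), without acute unlesioned replicate 1 (-0.52, 0.128) or 2 (-0.68, 0.106), in a fit of all 12 libraries (-0.68, 0.0878) and with transcripts summed by gene (-0.67, 0.0767).

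The fold change was below 0 for all 10 members in unlesioned striatum, with a median log2 fold change of -0.501 (-0.407 for the 7 that no measured value chose) against 0.00371 over all transcripts. The 7 were under an unadjusted p of 0.05, a count that fell to 2 without acute unlesioned replicate 1, to 3 without chronic unlesioned replicate 3 and to 4 without chronic unlesioned replicate 1 or acute unlesioned replicate 2. Hspa1b (-2.25 ± 0.824), Hspa1a (-1.92 ± 0.718) and Hspb1 (-1.06 ± 0.385) had the lowest log2 fold changes (SE). Hspb1 did not pass the test (edgeR adjusted p = 0.147), and Hspa1a, Hspa1b and Dnajb1 were not tested here. Without acute unlesioned replicate 1 Hspa1b had -0.91 and Hspa1a -0.69. Hspa8 had -0.45 ± 0.127 and Bag3 -0.41 ± 0.172 (SE, edgeR adjusted p = 0.0791 and 0.202), and Dnajb1 had -0.55 ± 0.219. Hsp90aa1 had -0.32 ± 0.105, Dnaja1 -0.32 ± 0.11 and Hsp90ab1 -0.22 ± 0.081 (SE, edgeR adjusted p = 0.121, 0.129 and 0.146). Chronic unlesioned replicate 2 was the highest of its group for all 10 genes. Without it the 7 had an adjusted p under 0.05, from -0.28 for Hsp90ab1 (edgeR adjusted p = 0.0371) to -1.53 for Hspb1 (edgeR adjusted p = 0.0209), and 5.88% of all transcripts were then called lower.

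In lesioned striatum the fold changes of chronic against acute L-DOPA are the values that chose Hspa1a and Hspa1b. Hspa1a had a log2 fold change of -3.32 ± 0.562 (SE), 9.96-fold lower, and Hspa1b -3.17 ± 0.69, 9.00-fold lower. Without acute lesioned replicate 1, the highest library for both, these became -2.54 and -2.32, and without chronic lesioned replicate 2 Hspa1b had -4.37. Dnajb1 had -2.68 ± 0.286 (6.42-fold lower), Hspb1 -1.38 ± 0.317, Hsph1 -1.14 ± 0.212 and Bag3 -0.74 ± 0.168. Dnaja1 had -0.51, Hspa8 -0.47, Hsp90aa1 -0.41 and Hsp90ab1 -0.30, the members nearest to 0. Past 1.5-fold lay 6 of 10 members (Hspa1a, Hspa1b, Dnajb1, Hspb1, Hsph1 and Bag3), where 7.67% of 127463 transcripts lay under minus 1.5-fold, a count from which nothing is read since the comparison chose members. The same 6 and Dnaja1 had no overlap between their acute and chronic lesioned libraries, as held with chronic lower for 19.7% of all transcripts, and nothing is read from this count either.

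The change of the lesion effect from acute to chronic L-DOPA chose Dnajb1, which had -2.13 ± 0.421 on the log2 scale (SE), 4.38-fold, or -2.61 without chronic lesioned replicate 2. Hspa1a had -1.38 ± 1.15 and Hspa1b -0.92 ± 1.36, whose errors are as large as or close to their values. Without acute unlesioned replicate 1 they had -2.61 and -2.24, and without chronic unlesioned replicate 2 Hspa1b had 0.22. Hsph1 had -0.46, Bag3 -0.34, Hspb1 -0.32, Dnaja1 -0.19, Hsp90aa1 -0.10, Hsp90ab1 -0.08 and Hspa8 -0.02. With 1 library left out the sign changed for Hspa8 (up to 0.14), Hspb1 (up to 0.15) and Hsp90aa1 (up to 0.03). Dnajb1, Hspa1a and Hspa1b lay under minus 1.5-fold, as did 6.76% of 130867 transcripts. Hspa8 had nearly the same lesion effect in both (0.60 and 0.58) where that of Dnajb1 was 3.64 and 1.51.

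**Figure D3:**
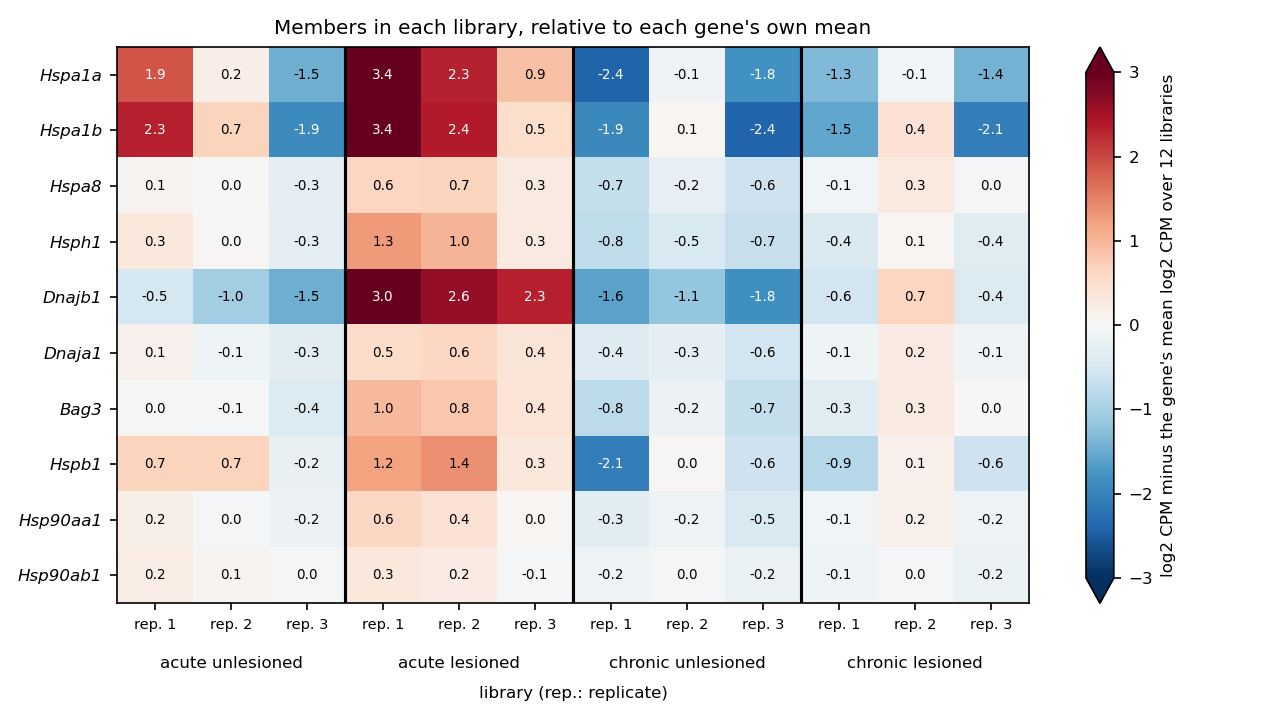
Heat map of log2 CPM of each chaperone gene (rows) in each of the 12 libraries (columns, by group and replicate), minus the gene's own mean over the libraries. Acute replicates 3 are the lowest of their groups for all 10 genes, and chronic replicates 2 are the highest of their groups for all 10.

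The members varied together within groups. Acute unlesioned replicate 1 was the highest and replicate 3 the lowest for all 10, acute lesioned replicate 1 was the highest for 7 and replicate 3 the lowest for all 10, and replicate 2 was the highest for all 10 in both chronic groups. Summed oligodendrocyte markers were 2327, 2195 and 2090 CPM in acute unlesioned, 3498, 2633 and 2115 CPM in acute lesioned, 1564, 2235 and 1641 CPM in chronic unlesioned and 1162, 2100 and 1357 CPM in chronic lesioned striatum, with the highest library in each group the same as for most members. All 6 of these markers lay under minus 1.5-fold in chronic against acute lesioned striatum, and their part in the chaperone values was not tested. Blood markers summed to 4.01 to 7.93 CPM in acute unlesioned, 4.99 to 9.78 CPM in acute lesioned, 1.67 to 4.04 CPM in chronic unlesioned and 1.69 to 3.30 CPM in chronic lesioned striatum, with all 4 under minus 1.5-fold in chronic against acute L-DOPA on either side, and their part was not tested either. No marker list summed to 0 in any library.

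Astrocyte markers summed to 331 to 394 CPM in acute lesioned against 279 to 296 CPM in acute unlesioned striatum, with 3 of 6 called higher, among them Gfap, the filament protein of reactive astrocytes (log2 fold change 1.25, edgeR adjusted p = 0.000302). After chronic L-DOPA they summed to 298 to 350 CPM in lesioned against 255 to 277 CPM in unlesioned striatum, with Gfap called at 1.96 (edgeR adjusted p = 0.000445). In chronic against acute unlesioned striatum 2 of the 6 were called lower, Aqp4 at -0.55 and Gja1 at -0.41. Mural markers summed to 28.4 to 33.6 CPM in acute lesioned, 24.1 to 28.6 CPM in acute unlesioned, 21.7 to 28.7 CPM in chronic lesioned and 19.1 to 25.1 CPM in chronic unlesioned striatum, with Acta2 called higher after acute and Tagln after chronic L-DOPA. Endothelial markers lay between 21.9 and 29.0 CPM in acute lesioned and between 21.4 and 24.8 CPM in acute unlesioned striatum, with 0 of 6 called by edgeR or DESeq2 and 0 at an unadjusted p under 0.05. Microglial markers summed to 62.9 to 74.8 CPM in acute lesioned, 57.1 to 59.6 CPM in acute unlesioned, 42.1 to 52.3 CPM in chronic lesioned and 40.5 to 51.8 CPM in chronic unlesioned striatum. Of these 6 markers 2 were called higher in acute lesioned striatum and 2 lower in chronic against acute unlesioned striatum. Markers of cortical glutamatergic neurons, which lie next to the striatum, summed to 1.75 to 15.6 CPM in acute lesioned against 12.9 to 30.0 CPM in acute unlesioned and to 1.60 to 22.5 CPM in chronic lesioned against 5.17 to 41.1 CPM in chronic unlesioned striatum. All 5 lay under minus 1.5-fold on the lesioned side after both treatments (medians -1.42 and -1.63), and 1 was called lower, after acute L-DOPA. Replicate 1 stood apart in both lesioned groups, where replicates 2 and 3 summed to 2.21 and 1.75 CPM after acute and 1.76 and 1.60 CPM after chronic L-DOPA. The part of each in the chaperone values was not tested.

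Across the 12 libraries, the genes most like Dnajb1 among 12784 others were Katna1 (r = 0.98), Clu (0.974), Taf13 (0.971), Zfp622 (0.969) and Calu (0.967). The measure was Pearson's r of log2(CPM + 1), over genes with a mean of at least 1 CPM. The added 1 compresses low values such as those of Hspa1a and Hspa1b. Of the members, Dnaja1 (0.957) and Bag3 (0.947) came closest, followed by Hspa8 (0.908), Hsph1 (0.883), Hsp90aa1 (0.863), Hspa1a (0.804), Hspa1b (0.739) and Hsp90ab1 (0.617). Hspb1 was below the minimum level. The libraries share tissue, depth and group structure, so these values are a description.

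Among 88 other chaperone and heat shock genes in the table, 86 were tested after acute L-DOPA, of which 13 were higher and 5 lower in lesioned striatum (6.85% and 6.02% of all transcripts). The Hsp70 and Hsp110 relatives had 3 of 7 higher, among them Hspa14 (log2 fold change 0.96, edgeR adjusted p = 1.43e-05) and Hspa4 (0.34), and 2 lower, with Hspa12a at -0.45 (edgeR adjusted p = 0.000546). Of 12 J-domain relatives, Dnajb4 (0.82, edgeR adjusted p = 0.00234) and Dnajb5 (0.44) rose. Of 20 co-chaperones, Unc45a (0.51) and Ptges3 (0.38) rose and Bag4 and Bag5 fell. None of 7 chaperonin subunits, 5 heat shock factors or 5 small heat shock genes was called by edgeR or by DESeq2, and at an unadjusted p under 0.05 the count was 2 for the small heat shock genes and 0 for the other lists. Of 6 other heat shock inducible genes, 3 rose, among them Atf3, a stress transcription factor (4.73, edgeR adjusted p = 8.26e-09).

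Of 14 endoplasmic reticulum chaperones, 3 rose after acute L-DOPA: the J-domain gene Dnajb9 (2.35, edgeR adjusted p = 5.1e-09), Hspa5, which encodes BiP (0.67, edgeR adjusted p = 0.0154), and Hsp90b1. After chronic L-DOPA Dnajb9 also rose (0.36, edgeR adjusted p = 0.0362). Of 10 mitochondrial chaperones edgeR called Dnaja3 lower and none higher, where 1 was higher at an unadjusted p under 0.05 and DESeq2 called none either way. After chronic L-DOPA 10 of 85 genes were higher and 2 lower in lesioned striatum (7.71% and 4.33% of all transcripts), led by Atf3 (4.80) and Dnajb5 (2.29, edgeR adjusted p = 4.86e-08), with Hspa4 (0.94), Hspa14 (0.83), Unc45a (0.82) and Hspa5 (0.82) also higher and Hspa12a (-0.79) and Hspa4l (-0.44) lower.

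In chronic against acute unlesioned striatum, edgeR called 13 of 86 genes lower and 0 higher (DESeq2 20 and 0, and 33 and 4 at an unadjusted p under 0.05). Over all transcripts 1.64% were lower and 0.968% higher, and 2.84% and 2.02% in DESeq2. The number of these calls changed with the library left out. Of the 86 genes 0 were called lower without acute unlesioned replicate 1 or 2 (24 and 26 at an unadjusted p under 0.05). The number was 2 without chronic unlesioned replicate 3, 3 without chronic unlesioned replicate 1 and 27 without chronic unlesioned replicate 2. The share of all transcripts called lower was then 0.0444%, 0.033%, 0.21%, 0.392% and 5.88%, and it was 0.312% with transcripts summed by gene, where 2 of 87 genes were called lower. With all 6 libraries, 7 of the 14 endoplasmic reticulum chaperones were lower (Hspa5, Hsp90b1, Calr, Pdia6, Sdf2l1, Manf and Creld2), with a list median of -0.523, while that of the mitochondrial chaperones was -0.0352. The other 6 were the small heat shock gene Cryab, the Hsp90 partners Chordc1 and Ahsa1, the heat shock factor Hsf1, Dnajb5 and Atf3. The cold-inducible RNA-binding protein genes Cirbp and Rbm3 were higher: Cirbp had 1.39 (edgeR adjusted p = 0.00613), 2.63-fold higher, and Rbm3 0.72 (edgeR adjusted p = 0.0125). The call of Rbm3 was lost without acute unlesioned replicate 1 (edgeR adjusted p = 0.0508) or 2 (0.0782) and without chronic unlesioned replicate 3 (0.0513), and for Cirbp the adjusted p rose to at most 0.0456. Rbm3 was also higher in lesioned than in unlesioned striatum, by 1.88 after acute (edgeR adjusted p = 7.8e-08) and 0.68 after chronic L-DOPA (edgeR adjusted p = 0.00124), where Cirbp had 0.03 and 0.09. Of the glucocorticoid-responsive genes Fkbp5, Tsc22d3, Sgk1 and Per1 none passed edgeR's test between treatments in unlesioned striatum, with Fkbp5 at 0.55 (edgeR adjusted p = 0.0509) and Tsc22d3 at -0.55 (edgeR adjusted p = 0.0541). These 2 were under an unadjusted p of 0.05 and were called by DESeq2 (adjusted p = 0.000857 and 0.00132). Fos, an immediate early gene of neuronal activity, fell by 0.93 on the log2 scale between treatments (edgeR adjusted p = 0.00495, and at most 0.0381 in the alternatives), and its lesion effect was 4.39 after acute and 4.62 after chronic L-DOPA. The part of what moved these genes in the chaperone values was not tested.

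**Figure D4:**
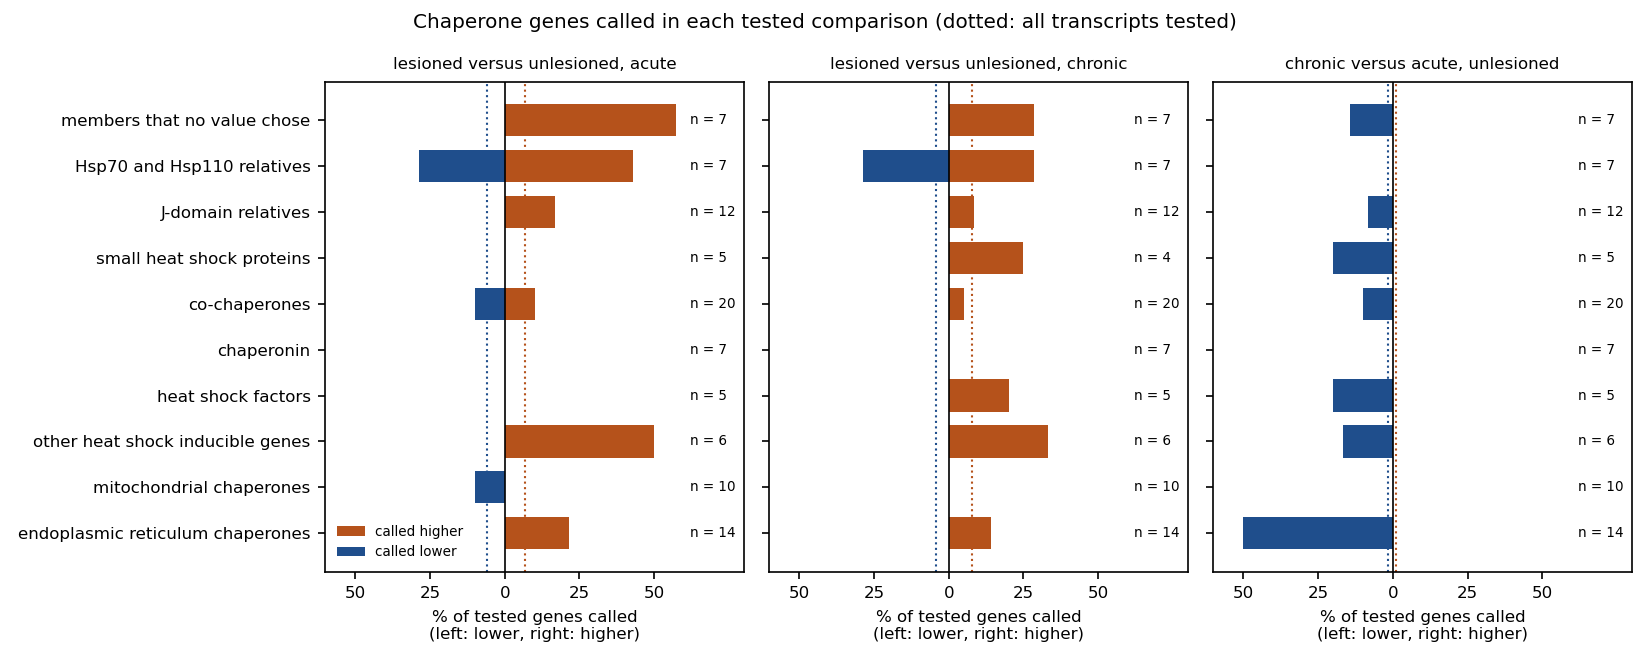
Share of tested genes called higher or lower (edgeR adjusted p under 0.05) in each chaperone list, in percent, for lesioned against unlesioned striatum (acute and chronic) and chronic against acute L-DOPA in unlesioned striatum. Bars to the left are called lower and to the right higher, and dotted lines give the share over all transcripts. The 7 cytosolic members that no measured value chose have 4 called higher after acute L-DOPA, and the endoplasmic reticulum list has 7 of 14 called lower in unlesioned striatum.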

How the data were processed

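Total RNA from striatal punches was prepared with TruSeq and sequenced on a Genome Analyzer II. The authors aligned the reads to mm9 with the Genomatix Mining Station, and the reads were counted per transcript. The deposited values are raw counts per transcript with the transcript length, and the authors' own comparisons were made with DESeq and were not used, nor were 56 further columns of per-library values. Whether counting used strand, and how reads with several matches were treated, was not given in the sources used here. The rows without a gene name (296 of 189660, 0.0485% of counts) were left out.

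Transcripts were filtered with filterByExpr, scaled with TMM and tested with the quasi-likelihood test of edgeR 4.0.16 (R 4.3.3, limma 3.58.1) on the 6 libraries of a comparison, and the change of the lesion effect was fitted on all 12. P-values were adjusted by Benjamini-Hochberg over all transcripts, and a transcript was called at an adjusted p under 0.05. A gene is its transcript with the highest mean count, and CPM used TMM over 12 libraries. The genes named are all 10 members, up to 2 genes each way of the other lists with the highest and lowest fold change among those called in lesioned against unlesioned striatum, the 5 most like Dnajb1 and a few cold-inducible, glucocorticoid-responsive and activity genes. Further genes of these lists (Hsp90b1, and those lower in unlesioned striatum) were named after their values were seen. The members and lists were chosen with earlier results of these data known. Counts of Hspa1a at 17 reads and Hspb1 at 9 reads limit their precision. Alternatives were DESeq2 1.42.0, its size factors, no filter, other transcript choices, all libraries in 1 fit, a replicate block and each library left out. Replicates of a group differed by more than sampling noise (chi-square per degree of freedom from 5.04). P-values measure the spread between 3 libraries a group.

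The replicate numbers may pair the lesioned and unlesioned libraries. The deviations from the group means over 12796 genes correlated between same-numbered libraries at 0.485, 0.439 and 0.394 after acute and 0.522, 0.562 and 0.149 after chronic L-DOPA. Between libraries of unlike number the values were -0.336 to -0.1 after acute and -0.517 to 0.158 after chronic L-DOPA. Chronic lesioned replicate 1 with unlesioned replicate 3 (0.158) was thus above the same-numbered chronic replicates 3. Beyond this hint, the study describes the unlesioned side as the control within a mouse, while the series counts 12 mice. Promoter windows were searched in Python 3.11.15 with pandas 2.3.3 and numpy 2.4.6, and figures were drawn with matplotlib 3.10.9. The scripts were tested on simulated data.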

Additional observations from a re-analysis of the deposited data

How the results depend on the processing

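Dnajb1, whose lesion effect was not tested, stayed above unlesioned striatum in each alternative run, with log2 fold changes of 3.44 to 3.93 and 1.03 to 1.73 when a library was left out. Of the 7 members no value chose, those called higher after acute L-DOPA numbered 6 with the replicate block and 3 to 6 with 1 library left out, and after chronic L-DOPA 5 and 0 to 4. Hspa1a, Hspa1b and Dnajb1 were not tested there, so counts that include their calls are void and nothing is read from them. Such counts of 10 were 9 with the replicate block and 4 to 8 with 1 library left out after acute L-DOPA. After chronic L-DOPA they were 6 and 1 to 5. In unlesioned striatum, chronic against acute, 1 member was called with the replicate block, where the replicate numbers do not pair the libraries (r from -0.065 to 0.15), 2 were called with DESeq2 and 2 with no filter on low counts. Among the 7 the number was 0 in edgeR with transcripts summed by gene, 0 in the edgeR fit of all 12 libraries and 0 to 7 with 1 library left out. At an unadjusted p under 0.05 the count among the 7 was 6 with transcripts summed and 6 in the fit of all 12 libraries. The cause of these changes was not tested. Of the other chaperone genes DESeq2 called 20 lower there against 13 in edgeR. The members past minus 1.5-fold in the change of the lesion effect numbered 1 to 5 with 1 library left out. After chronic L-DOPA the lesion effect changed sign with a library left out for Hspa1a (-0.26 to 1.25), Hspa1b (-0.78 to 1.53), Hspb1 (-0.095 to 0.74) and Hsp90ab1 (-0.034 to 0.055), none of them called, and Hsp90ab1 had -0.0031 with no filter. The change of the lesion effect ran from -2.24 to 0.22 for Hspa1b, -0.14 to 0.14 for Hspa8, -0.68 to 0.15 for Hspb1, -0.24 to 0.03 for Hsp90aa1 and -2.61 to -0.44 for Hspa1a. Of the 380 values of single members under the other settings 378 kept their sign, as did 342 of 360 with a library left out. All 20 changes of sign were in the chronic lesion effect and the change of the lesion effect. Low counts limit Hspa1a, Hspa1b and Hspb1.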
